A study of Mus musculus with 7 samples.

Results

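The collagen genes were described in sorted mouse glioblastoma cells of wild-type and Fyn-knockout mice, Fyn being a Src family kinase. They were taken by symbol, as every entry of the count table named Col, a number, a and a number, and they numbered 44 of 23282 entries. Per the labels, the samples were glioblastoma cells from adult mice of the C57BL/6 strain. A cell sorter had picked the cells for the fluorescent label tdTomato, so cells of both groups carried it. The 2 groups were WT (n = 3 libraries) and Fyn-KO (n = 4 libraries), each library coming from the separately sorted tumour cells of its own mouse. Transcripts were measured by QuantSeq, which reads tags from the 3' end of polyadenylated RNA. The sources used here do not say how the tumours were made, which promoter drives tdTomato or which part of Fyn was altered. Values are counts per 1000000 counts of the library (CPM), listed for WT replicates 1 to 3 and then Fyn-KO replicates 1 to 4. They were not divided by length, since a transcript gives a 3' tag whatever its length.

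Collagens are secreted or membrane proteins whose chains wind around each other in a helix built from repeats of glycine and 2 further residues (Gly-X-Y). Fibrillar collagens form the banded fibres of connective tissue, and type IV collagen forms the sheet under endothelium and epithelium called the basement membrane. Beaded filaments (type VI), fibril-associated collagens with interrupted helices (FACIT), short chain networks, anchoring fibrils and transmembrane collagens make up the rest. Brain tissue holds little fibrillar collagen, which lies mainly in the meninges and around vessels, where fibroblasts and pericytes make it. Each of the 44 genes has a coding sequence in GENCODE M21, and the classes differed in how long the helix ran without a break. The longest uninterrupted Gly-X-Y run was 216 to 344 triplets in the 11 fibrillar genes, 30 to 66 in the 8 basement membrane genes, 37 to 87 in the 6 beaded filament genes and 32 to 113 in the 9 FACIT genes.

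The libraries held 8976745 to 16371244 counts, and genes with a count numbered 7723 to 9924 in WT and 13535 to 14548 in Fyn-KO. Fyn stood at 1039, 719.9 and 1604 CPM in WT, against 105, 106, 74.5 and 189.8 CPM in Fyn-KO, so it was lower but still counted in each library labelled Fyn-KO. The WT libraries were uneven. Where a gene reached 100 counts in some WT library, it had 3 or fewer in another in 61.4% of cases, against 3.58% in Fyn-KO. For collagens the shares were 13 of 22 genes (59.1%) in WT and 4 of 26 (15.4%) in Fyn-KO. Cell markers were read beside the label of tumour cells, which both groups share. The 7 genes of the oligodendrocyte lineage summed to 12553 to 25226 CPM in WT, against 196 to 1030 CPM in Fyn-KO. Markers of steroid-producing cells summed to 4.46, 0 and 285 CPM in WT, against 22393 to 25782 CPM in Fyn-KO. On both lists the Fyn-KO libraries lay far from the WT libraries of the same cell label. Which cells the Fyn-KO samples held was not tested. In bulk RNA fewer cells of a type and less RNA per cell cannot be told apart.

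Collagen tags were more abundant in Fyn-KO, and the mixture of classes differed. All 44 genes together summed to 1017, 1850.4 and 2427 CPM in WT (1765 ± 709, mean ± SD, n = 3) and to 3539, 3731, 2918 and 3205 CPM in Fyn-KO (3348 ± 360, n = 4). Each Fyn-KO library lay above each WT library in CPM, which leaves out the library scaling factors (TMM) of the test below. Those factors were 1.005, 1.232 and 0.7587 in WT, against 1.037, 1.041, 0.94 and 1.049 in Fyn-KO. Divided by them, the sum of WT replicate 3 would lie above those of Fyn-KO replicates 3 and 4. WT libraries had a count for 16, 21 and 23 of the genes, and Fyn-KO libraries for 33, 34, 37 and 31. In WT 15 genes were at 0 in all libraries, and in Fyn-KO 3 were. Col10a1, a collagen of growth plate cartilage, and Col28a1 had no count in any library.

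**Figure D1:**
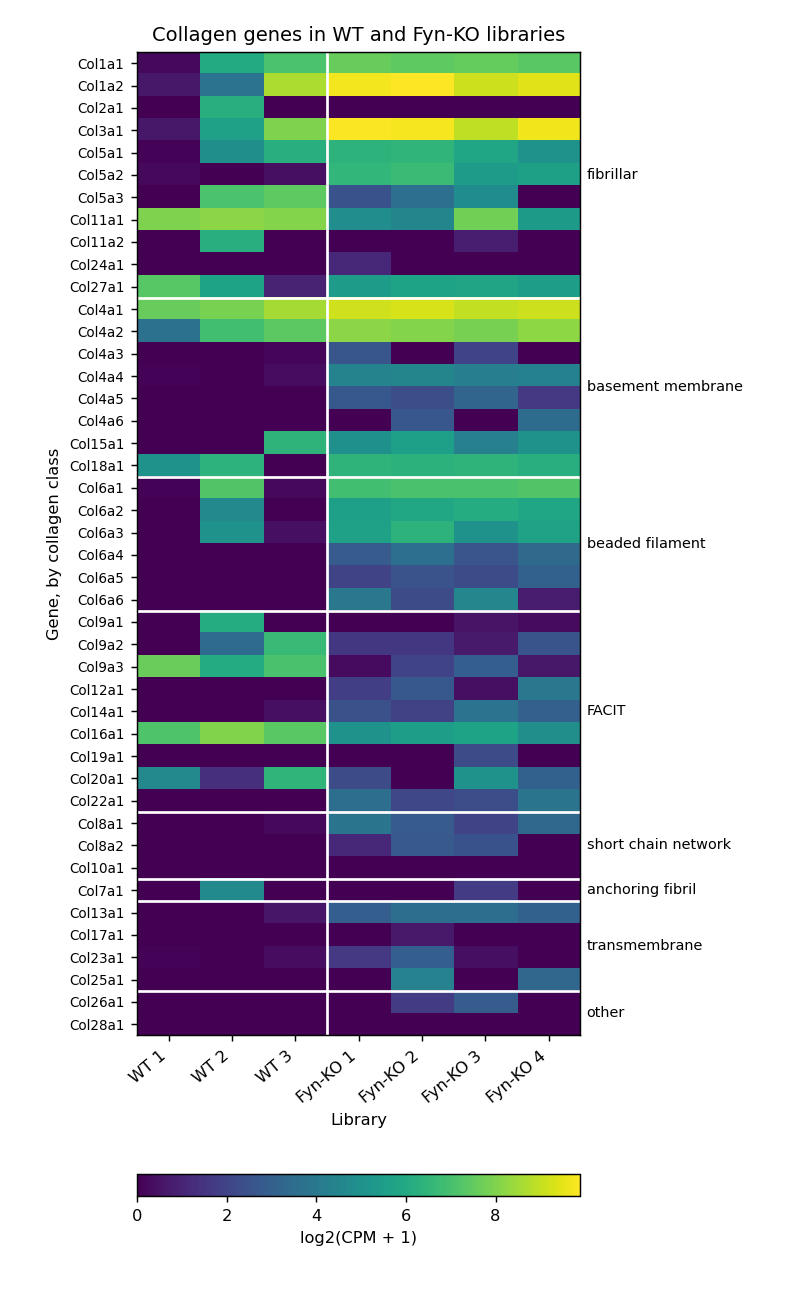
Each row is a collagen gene and each column a library, with colour giving log2(CPM + 1) and white lines separating the classes and the groups. The WT columns have a count for 16 to 23 of the 44 genes and the Fyn-KO columns for 31 to 37, and a gene that is bright in 1 WT column is often dark in another.

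Of the 44 genes, 30 had enough counts to be tested (10 or more in enough libraries), and 18 of those had 10 or more counts in at least 1 WT library. The others entered through Fyn-KO libraries alone and so had to be high there. In the edgeR quasi-likelihood test, with Benjamini-Hochberg adjusted p under 0.05 over all 13122 tested genes, 9 collagens were higher in Fyn-KO (30%) and 2 were lower (6.67%). Over all tested genes 19% were higher and 3.51% were lower. The tested collagens had a median log2 fold change (Fyn-KO minus WT) of 2.31, against 0.45 for all tested genes. Without overlap between the groups in CPM, 17 of the 30 were higher in Fyn-KO and 3 were higher in WT, where all tested genes gave 30.1% and 7.32%. All 9 higher collagens had at most 4 counts in any WT library, and 6 of them had none. Over all genes, 2340 of the 2493 higher ones likewise stayed below 10 counts in each WT library. Of all 13122 tested genes, 10096 had 10 or more counts in some WT library, beside the 18 of 30 collagens. The 30% and the 19% therefore come from unlike mixtures of genes, and the difference between them was not tested. A stricter filter asked for 10 or more counts in 2 or more WT libraries and in 3 or more Fyn-KO libraries. Under it 13 collagens were tested and 0 passed in edgeR (2 had an unadjusted p under 0.05, Col4a1 and Col16a1). None of the 9 higher collagens was among the 13, and of the 2 lower ones only Col16a1 was. All genes so filtered gave 0.807% higher and 2.26% lower. With all tested genes, 14 collagens were higher without WT replicate 3, and 1, 0 and 1 were lower without Fyn-KO replicates 1, 2 and 4. Limma-voom gave 0 higher and 2 lower.

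**Figure D2:**
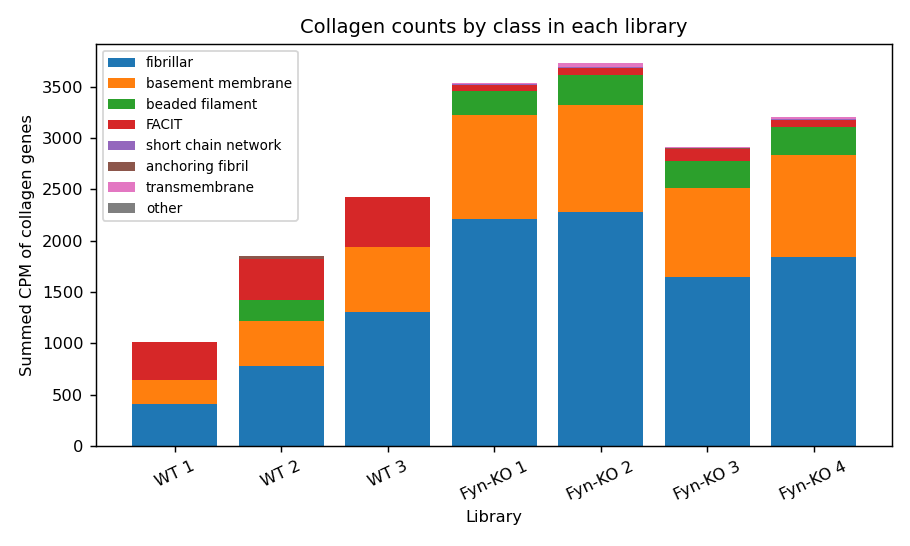
Stacked bars give the summed CPM of each collagen class in each library, on a linear axis from 0. The bars reach 1017 to 2427 CPM in WT, against 2918 to 3731 CPM in Fyn-KO, and the FACIT segment is the larger in WT.

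Fibrillar collagens supplied the largest share of collagen tags in each library. They summed to 411, 778 and 1309 CPM in WT, against 2212, 2277, 1650.0 and 1847 CPM in Fyn-KO, or 40.5 to 53.9% and 56.5 to 62.5% of all collagen tags. The groups did not overlap on either measure. Of 8 tested fibrillar genes 1 rose, none fell and 7 did not pass, beside 19% higher and 3.51% lower over all tested genes. The median log2 fold change of the class was 0.94.

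Col1a1 and Col1a2 encode the chains of type I collagen, the main fibre of skin and bone. Col1a1 stood at 0.157, 64.7 and 134 CPM in WT, against 192, 174, 186 and 163 CPM in Fyn-KO. Col1a2 stood at 0.548, 12.7 and 408 CPM in WT, against 852, 949, 567 and 706 CPM in Fyn-KO. For both genes the Fyn-KO libraries lay above WT, while the WT libraries ranged from under 1 CPM to levels near the lowest Fyn-KO library. Neither passed, with log2 fold changes of 1.20 ± 1.42 (SE, edgeR adjusted p = 0.664) and 2.04 ± 1.64 (0.486). Without WT replicate 3, Col1a2 passed at 7.10 (adjusted p = 0.0111).

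Col3a1, the fibre collagen of vessel walls and soft tissue, stood at 0.548, 50.1 and 252 CPM in WT, against 916, 875, 493 and 809.5 CPM in Fyn-KO. Its mean was 101 ± 133 CPM in WT, against 773 ± 192 CPM in Fyn-KO, 7.67 times higher, without overlap. The test did not pass (log2 fold change 2.60 ± 1.45, edgeR adjusted p = 0.277), and without WT replicate 3 the log2 fold change was 5.19 (0.0592). Col3a1 lies on chromosome 1 at 45311538 to 45349706 (GRCm38, plus strand), tail to tail with Col5a2 at 45374321 to 45503282, with 24614 bases between them.

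Col5a2 encodes a chain of type V collagen, which sits inside type I fibres and limits their width. It was the fibrillar gene that rose, with 0.157, 0 and 0.336 CPM in WT, against 92.2, 106, 43.0 and 48.6 CPM in Fyn-KO. WT held 6 of its counts in all and Fyn-KO 2801. The log2 fold change was 8.45 ± 1.81 (edgeR adjusted p = 0.0126). Its partner chain Col5a1 was near 0 in WT replicate 1 alone. Col5a1 stood at 0.0783, 29.0 and 72.4 CPM in WT, against 83.0, 86.7, 57.1 and 33.2 CPM in Fyn-KO, overlapping between groups (log2 fold change 0.68 ± 1.54, edgeR adjusted p = 0.838).

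Col5a3 and Col11a1, a chain of the type XI collagen known from cartilage fibrils, had higher means in WT, but neither passed. Col11a1 stood at 251, 289 and 267 CPM in WT, against 28.1, 22.1, 222 and 40.8 CPM in Fyn-KO. In CPM its WT libraries lay close together and above all Fyn-KO libraries, of which replicate 3 came near them. Divided by the TMM factors, Fyn-KO replicate 3 would be about level with WT replicate 2, and WT replicate 3 would lie apart. The log2 fold change was -1.79 ± 0.90 (edgeR adjusted p = 0.221), and without Fyn-KO replicate 3 it was -3.14 (adjusted p = 0.0189). The same library had the highest oligodendrocyte lineage marker sum of the Fyn-KO group, 1030 CPM against 196 to 624 CPM, and the part of those cells in the Col11a1 value was not tested. Col5a3 stood at 0, 136 and 175 CPM in WT, against 4.69, 11.2, 27.4 and 0 CPM in Fyn-KO (log2 fold change -3.36 ± 2.30, edgeR adjusted p = 0.396).

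Col27a1, another fibrillar collagen of cartilage, was spread in WT and even in Fyn-KO, at 159, 52.7 and 0.923 CPM and at 43.4, 52.7, 53.6 and 45.9 CPM. Its log2 fold change was -0.49 ± 1.25 (edgeR adjusted p = 0.862). The cartilage genes Col2a1 and Col11a2 came from 1 WT library, with 72.0 and 71.6 CPM in WT replicate 2 and 0 in WT replicates 1 and 3. Col2a1 had no count in Fyn-KO and Col11a2 had 7 counts, all in replicate 3. Col24a1 had 11 counts, all in Fyn-KO replicate 1. These 3 genes were not tested.

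**Figure D3:**
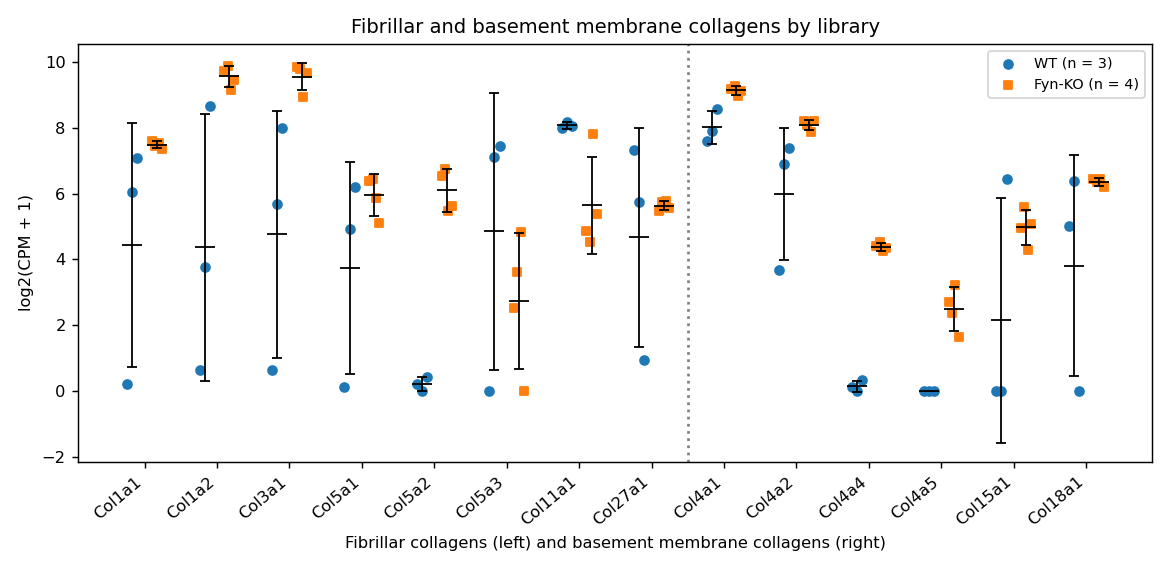
Points are libraries, with fibrillar collagens left of the dotted line and basement membrane collagens right of it, and the vertical axis is log2(CPM + 1). Horizontal ticks with bars give the mean ± SD of WT (n = 3) and Fyn-KO (n = 4). The WT points of Col1a1, Col1a2 and Col3a1 run from under 1 CPM to 134, 408 and 252 CPM, while those of Col5a2, Col4a4 and Col4a5 lie at or near 0.

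The basement membrane collagens summed to 235, 437 and 629 CPM in WT, against 1010.3, 1046, 865 and 987 CPM in Fyn-KO, without overlap. Of 6 tested genes 2 rose, none fell and 4 did not pass, beside 19% higher and 3.51% lower over all tested genes. The 2 that rose stayed below 10 counts in all WT libraries. The median log2 fold change of the class was 1.28. Without WT replicate 3, 4 rose, and without Fyn-KO replicate 1, 2 or 4, 1 rose. The rises were in Col4a4 and Col4a5, and the abundant chains Col4a1 and Col4a2 did not pass.

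The 6 type IV genes lie in head-to-head pairs, so that the starts of each pair face away from each other. In GENCODE M21 (GRCm38), Col4a1 and Col4a2 on chromosome 8 overlap by 22 bases at their starts, far from their 3' tags. Col4a4 and Col4a3 on chromosome 1 are 71 bases apart, and Col4a6 and Col4a5 on chromosome X are 1308 bases apart. The stretches from 250 bases before to 50 bases after each start are shown because they hold what lies between the starts of the closest pairs. The windows, 5' to 3' on the strand of the gene, are from RefSeq (GRCm38.p6), where 35 of the 44 collagen genes have one and Col4a3 is named only. They are chr8:11312777-11313076 (minus strand) for Col4a1, chr8:11312555-11312854 (plus) for Col4a2, chr1:82586800-82587099 (minus) for Col4a4, chrX:141475169-141475468 (plus) for Col4a5 and chrX:141474027-141474326 (minus) for Col4a6. Capitals mark matches of either strand to CCAAT, to TATAAA or to GGGCGG.
Col4a1: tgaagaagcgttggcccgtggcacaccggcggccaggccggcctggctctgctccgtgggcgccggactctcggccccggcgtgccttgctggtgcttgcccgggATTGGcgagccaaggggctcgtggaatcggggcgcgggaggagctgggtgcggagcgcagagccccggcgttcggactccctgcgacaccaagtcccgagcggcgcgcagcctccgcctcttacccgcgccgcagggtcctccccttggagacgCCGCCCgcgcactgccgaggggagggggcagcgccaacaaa
Col4a2: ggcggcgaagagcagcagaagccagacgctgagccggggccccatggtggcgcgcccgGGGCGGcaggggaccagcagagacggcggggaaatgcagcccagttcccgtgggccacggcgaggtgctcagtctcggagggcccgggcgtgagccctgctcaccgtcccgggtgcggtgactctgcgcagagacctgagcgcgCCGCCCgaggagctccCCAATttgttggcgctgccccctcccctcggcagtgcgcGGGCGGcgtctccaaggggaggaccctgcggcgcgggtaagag
Col4a4: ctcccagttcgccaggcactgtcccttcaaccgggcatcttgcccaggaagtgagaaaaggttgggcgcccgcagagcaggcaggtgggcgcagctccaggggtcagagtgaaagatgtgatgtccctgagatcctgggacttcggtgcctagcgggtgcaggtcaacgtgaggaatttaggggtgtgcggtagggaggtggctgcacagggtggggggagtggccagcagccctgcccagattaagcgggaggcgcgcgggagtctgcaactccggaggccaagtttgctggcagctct
Col4a5: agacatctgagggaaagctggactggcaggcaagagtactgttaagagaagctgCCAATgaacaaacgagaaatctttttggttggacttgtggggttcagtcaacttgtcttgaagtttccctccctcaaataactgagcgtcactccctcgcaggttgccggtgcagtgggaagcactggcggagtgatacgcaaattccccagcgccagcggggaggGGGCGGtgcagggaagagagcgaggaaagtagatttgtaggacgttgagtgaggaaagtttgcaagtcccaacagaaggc
Col4a6: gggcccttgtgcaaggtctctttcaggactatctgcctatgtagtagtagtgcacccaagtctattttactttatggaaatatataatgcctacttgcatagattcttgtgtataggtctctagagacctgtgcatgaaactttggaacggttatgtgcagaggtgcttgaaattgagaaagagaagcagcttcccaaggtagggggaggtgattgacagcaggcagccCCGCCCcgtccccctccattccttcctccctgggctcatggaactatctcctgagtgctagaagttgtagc
The Col4a1 and Col4a2 windows share 78 bases, read on opposite strands. No window held TATAAA. The letters CCAAT were found once in Col4a1, Col4a2 and Col4a5, and those of GGGCGG 3 times in Col4a2 and once in Col4a1, Col4a5 and Col4a6. Neither was found in Col4a4. Over all 32851 windows 37.4% held CCAAT, 13.6% TATAAA and 35.7% GGGCGG, and over the 38 windows of collagen genes the shares were 34.2%, 13.2% and 60.5%. The GC content was 74% and 73.7% in Col4a1 and Col4a2, 63.3% in Col4a4, 52.7% in Col4a5 and 48.3% in Col4a6, with a median of 52.7% over all windows.

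Col4a1 and Col4a2 form the type IV collagen found in all basement membranes. Col4a1 stood at 191, 236 and 377 CPM in WT, against 572, 619, 499 and 556 CPM in Fyn-KO. Col4a2 stood at 11.9, 118 and 166 CPM in WT, against 291, 268, 232 and 294 CPM in Fyn-KO. Both were without overlap and their means were 2.10 and 2.75 times higher in Fyn-KO. Neither passed, with log2 fold changes of 0.91 ± 0.42 (SE, edgeR adjusted p = 0.177) and 1.29 ± 0.83 (0.358). Without WT replicate 3, Col4a1 passed at 1.52 (adjusted p = 0.00778), and so it did with libraries scaled by their totals alone (1.06, adjusted p = 0.0477).

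Col4a3, Col4a4 and Col4a5 form the type IV network of the kidney filter and the inner ear. Col4a4 (chromosome 1, 82448423 to 82586849) stood at 0.0783, 0 and 0.252 CPM in WT, against 20.2, 22.0, 18.0 and 19.4 CPM in Fyn-KO. Its Fyn-KO libraries lay close together, and the log2 fold change was 7.13 ± 1.76 (edgeR adjusted p = 0.0205). The call was lost by a small margin without Fyn-KO replicate 1, 2 or 4 (adjusted p = 0.0537, 0.0539 and 0.0501). Col4a5 (chromosome X, 141475385 to 141689234) was not counted in WT and reached 5.54, 4.14, 8.32 and 2.12 CPM in Fyn-KO. A floor of 3 counts in the shallowest WT library is 0.252 CPM, which makes Col4a5 at least 20.0-fold higher on the mean (edgeR adjusted p = 0.0121). The neighbours of these genes were not tested and, but for 1 count in WT, came from some Fyn-KO libraries alone. Col4a3 had 1 count in WT and stood at 5.22, 0, 2.96 and 0 CPM in Fyn-KO, and Col4a6 had none in WT but 0, 5.39, 0 and 10.2 CPM in Fyn-KO.

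Col15a1 and Col18a1 encode collagens of the vessel basement membrane that carry sugar chains, and Col18a1 gives rise to endostatin. Col18a1 stood at 31.5, 83.0 and 0 CPM in WT, against 85.5, 80.1, 85.6 and 72.3 CPM in Fyn-KO, with overlap (log2 fold change 1.27 ± 1.62, edgeR adjusted p = 0.691). Col15a1 stood at 0, 0 and 85.6 CPM in WT, against 30.3, 46.8, 18.6 and 32.9 CPM in Fyn-KO (log2 fold change -0.27 ± 2.31, edgeR adjusted p = 0.962). WT replicate 3 held all WT counts of Col15a1, and without it the log2 fold change was 11.54 (adjusted p = 0.00778). That library also had the highest sum of 7 endothelial markers, 828 CPM against 1.10 and 20.0 CPM in the other WT libraries and 368 to 424 CPM in Fyn-KO. The part of endothelial RNA in the Col15a1 value was not tested.

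Beaded filament collagens of type VI link cells to their surroundings in muscle, skin and vessel walls. They summed to 0.0783, 204 and 0.504 CPM in WT, against 237, 295, 263 and 270.5 CPM in Fyn-KO. WT replicate 2 came near the Fyn-KO libraries, and the other WT libraries were near 0. Of the 6 genes, all tested, 3 rose, none fell and 3 did not pass, beside 19% higher and 3.51% lower over all tested genes. The 3 that rose had no count in WT, so they entered through Fyn-KO alone and had to be high there. The median log2 fold change was 5.93, or 3.68 with the genes at 0 in WT set to their bound.

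The core chains Col6a1, Col6a2 and Col6a3 did not pass, and each was counted in WT replicate 2. Col6a1 stood at 0.0783, 148 and 0.168 CPM in WT, against 117, 132, 130.5 and 146 CPM in Fyn-KO, with overlap. Col6a2 stood at 0, 24.3 and 0 CPM in WT, against 47.3, 59.1, 69.2 and 55.6 CPM in Fyn-KO. Col6a3 stood at 0, 31.6 and 0.336 CPM in WT, against 49.0, 83.2, 31.6 and 51.6 CPM in Fyn-KO. WT replicates 1 and 3 held at most 4 counts of any of these chains. Without WT replicate 2 all of them passed, Col6a1 at a log2 fold change of 9.67 (adjusted p = 0.00455), Col6a2 at 12.17 (0.00455) and Col6a3 at 7.86 (0.0163).

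The chains that can take the place of the Col6a3 chain, Col6a4, Col6a5 and Col6a6, were the ones that rose. They lie in a row on chromosome 9 between 105687809 and 106096783, in the same direction, with 28810 and 27917 bases between neighbours. None had a count in WT. Col6a4 stood at 6.18, 11.2, 5.14 and 9.69 CPM in the Fyn-KO libraries, at least 31.9-fold higher on the mean (edgeR adjusted p = 0.0121). Col6a5 stood at 3.09, 4.81, 3.94 and 7.35 CPM, at least 19.1-fold higher on the mean (edgeR adjusted p = 0.0121). Col6a6 was the most uneven of them, at 14.5, 3.94, 22.8 and 0.668 CPM, at least 41.6-fold higher on the mean (edgeR adjusted p = 0.0235). Without any 1 of Fyn-KO replicates 1, 2 and 3, Col6a6 had too few counts to be tested, and 2 of 5 tested type VI genes rose.

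FACIT collagens bind to the surface of fibrils, and in WT they were a larger part of the collagen tags than in Fyn-KO. They summed to 370.3, 407 and 488 CPM in WT, against 55.5, 61.0, 113 and 76.4 CPM in Fyn-KO, or 20.1 to 36.4% and 1.57 to 3.88% of collagen tags, without overlap. Of 7 tested genes 2 rose, 2 fell and 3 did not pass, beside 19% higher and 3.51% lower over all tested genes. The 2 that rose had no count in WT. The median log2 fold change of the class was -2.09. Leaving out WT replicate 1, or any 1 of Fyn-KO replicates 1, 2 and 4, left 1 that rose. Without any 1 of these Fyn-KO replicates, Col12a1 had too few counts to be tested.

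Col9a3, a chain of the type IX collagen on cartilage fibrils, was among the genes that fell. On chromosome 2 (180597790 to 180622189), it stood at 203, 66.3 and 132 CPM in WT, against 0.213, 2.98, 6.79 and 0.557 CPM in Fyn-KO, 50.8 times higher in WT on the mean. The log2 fold change was -5.73 ± 1.41 (edgeR adjusted p = 0.0202), and without Fyn-KO replicate 2 the call was lost (adjusted p = 0.0596). Its sister chains were less even in WT. Col9a2 stood at 0, 10.02 and 103 CPM in WT, against 2.02, 2.02, 0.657 and 4.90 CPM in Fyn-KO (log2 fold change -4.37 ± 2.13, edgeR adjusted p = 0.206). It passed without WT replicate 1 (-4.95, adjusted p = 0.0326), and without WT replicate 3 its log2 fold change was -0.82 (0.793). Col9a1 was not tested, with 68.6 CPM in WT replicate 2 alone and at most 0.438 CPM in Fyn-KO.

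Col16a1, the other gene that fell, encodes a FACIT chain known from skin and cartilage. On chromosome 4 (130047840 to 130099283), it stood at 143, 260.3 and 164 CPM in WT, against 31.5, 44.2, 52.2 and 28.9 CPM in Fyn-KO, and the groups did not overlap. On the mean it was 4.82 times higher in WT (log2 fold change -2.29 ± 0.58, edgeR adjusted p = 0.0232). Without Fyn-KO replicate 1, 2 or 4 it did not pass (adjusted p = 0.0786, 0.0665 and 0.0724, log2 fold change -2.17 to -2.33). Markers of the oligodendrocyte lineage fell with these genes, 7 of 7 passing, beside 3.51% lower over all tested genes. Their sum was 12553 to 25226 CPM in WT, against 196 to 1030 CPM in Fyn-KO. Astrocyte markers summed to 370.2 to 1132 CPM in WT, against 31.3 to 47.2 CPM in Fyn-KO, with 1 of 4 tested lower and none higher. Leaving out WT replicate 1, or 1 of Fyn-KO replicates 1 and 2, gave 0 lower, and without WT replicate 2 the list gave 1 higher and 1 lower. Aldh1l1, which did not pass, had the higher mean in Fyn-KO (19.7 CPM against 6.91 CPM in WT). The part of either cell type in the FACIT values was not tested.

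Col12a1, a FACIT of tendon and other tissue under load, and Col22a1, known from the junction of muscle and tendon, had no count in WT. Col22a1 (chromosome 15, 71795795 to 72034227) stood at 10.9, 3.27, 4.16 and 12.9 CPM in the Fyn-KO libraries, at least 31.0-fold higher on the mean (edgeR adjusted p = 0.0121). Col12a1 (chromosome 9, 79598991 to 79718831) stood at 2.56, 5.58, 0.328 and 14.5 CPM, at least 22.8-fold higher on the mean (edgeR adjusted p = 0.0258, and 0.0537 without WT replicate 1). Fyn-KO replicate 3 held only 3 counts of Col12a1, near the floor. Col14a1 and Col20a1 did not pass. Col14a1 stood at 0, 0 and 0.336 CPM in WT, against 4.48, 2.89, 12.6 and 7.13 CPM in Fyn-KO (edgeR adjusted p = 0.0673, and 0.015 without WT replicate 3). Col20a1 ranged from 1.53 to 88.7 CPM in WT and from 0 to 32.1 CPM in Fyn-KO (edgeR adjusted p = 0.578).

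Among the remaining classes 1 gene rose, of 2 tested short chain genes and 1 tested transmembrane gene, beside 19% higher over all tested genes. Col8a1 encodes a short chain collagen of vessel walls and of a membrane at the back of the cornea. It lies on chromosome 16 (57624258 to 57754737). It had 2 counts in WT and stood at 13.1, 6.16, 3.06 and 8.80 CPM in the Fyn-KO libraries, a ratio of pooled counts of 159 with a 95% exact interval of 43.7 to 1321. Its edgeR adjusted p was 0.0302, and 0.0546 without WT replicate 1. Its partner Col8a2 had no count in WT but had 1.17, 5.77, 4.60 and 0 CPM in Fyn-KO and did not pass (edgeR adjusted p = 0.058, and 0.0201 without Fyn-KO replicate 4). The transmembrane collagen Col13a1 had 6 counts in WT, all in replicate 3, and stood at 6.71, 10.9, 10.8 and 7.35 CPM in Fyn-KO. Its edgeR adjusted p was 0.0797, and it passed without WT replicate 2 (0.0465) or 3 (0.00852). Col7a1, the anchoring fibril of skin, stood at 25.1 CPM in WT replicate 2 and 2.41 CPM in Fyn-KO replicate 3 and had no count elsewhere. The untested genes were spread over few libraries. Col25a1, a transmembrane collagen, had counts in Fyn-KO replicates 2 and 4 alone (19.8 and 8.69 CPM), and Col26a1, of no class above, in Fyn-KO replicates 2 and 3 alone (2.31 and 6.35 CPM). Col23a1, also transmembrane, had 4 counts in WT and reached 6.73 CPM in Fyn-KO replicate 2. Col17a1, a transmembrane collagen of skin, had 6 counts, all in Fyn-KO replicate 2, and Col19a1, a FACIT, had 36, all in Fyn-KO replicate 3.

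**Figure D4:**
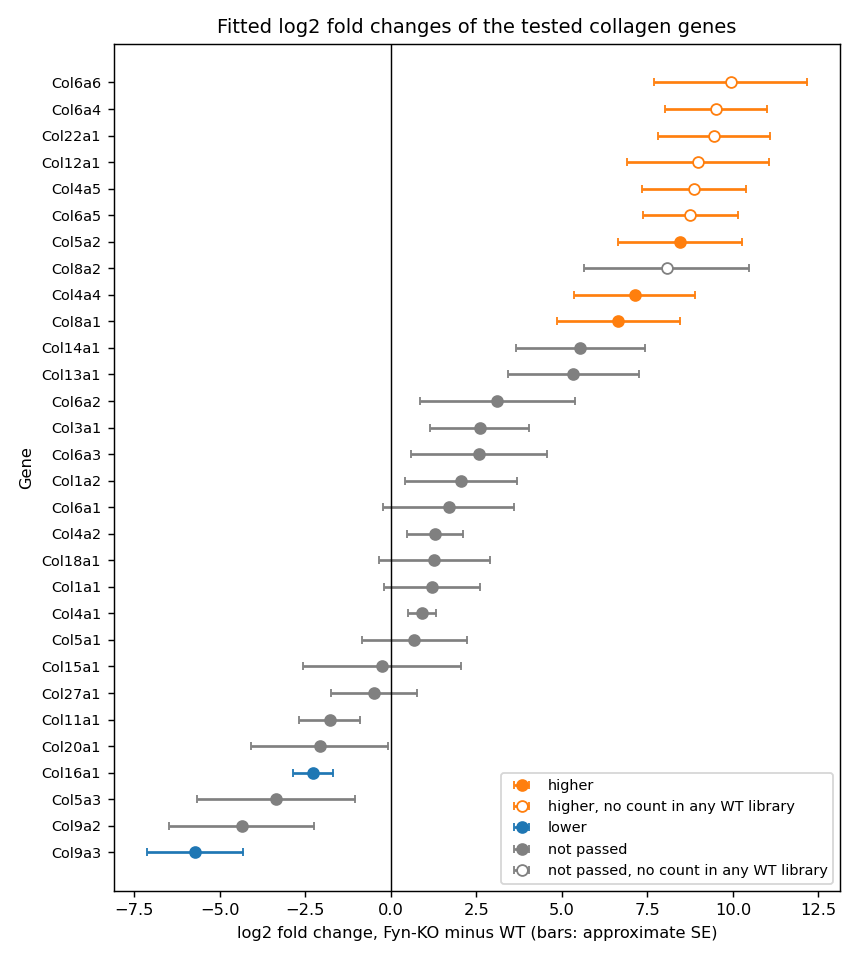
Points give the fitted log2 fold change (Fyn-KO minus WT) of the 30 tested collagens, with bars for the approximate SE, in colour where the adjusted p was under 0.05. Open points have no count in WT, so that the counts set only a lower bound on their size. The 9 higher genes lie at the top, with Col8a2, which did not pass, among them, and Col9a3 and Col16a1, the 2 lower ones, near the bottom at -5.73 and -2.29.

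Ratios between chains of a type ranged more widely in WT than in Fyn-KO for Col4a1 over Col4a2 and for Col1a1 over Col1a2. Of 6 ratios, 1 had 10 or more counts of both chains in all 7 libraries and was tested. Col4a1 over Col4a2 was 16.1, 2.01 and 2.27 in WT, against 1.97, 2.31, 2.15 and 1.89 in Fyn-KO. The mean log2 ratio was 2.07 ± 1.68 in WT and 1.05 ± 0.13 in Fyn-KO (SD), a difference of -1.01 (exact two-sided permutation p = 0.286, smallest possible 0.0286). Without WT replicate 1 the difference was -0.04 (exact permutation p = 0.667). Among the untested ratios, Col1a1 over Col1a2 was 5.09 in WT replicate 2, 0.330 in WT replicate 3 and 0.183 to 0.328 in Fyn-KO. Col6a1 over Col6a2 was 6.07 in WT replicate 2 and 1.89 to 2.62 in Fyn-KO.

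Genes that make, trim and bind collagen were read from lists written for this purpose. Of 18 tested genes of collagen synthesis, which modify and fold the chains in the endoplasmic reticulum, 1 rose, none fell and 17 did not pass (median log2 fold change 0.80). The share that rose was 5.56%, beside 19% higher and 3.51% lower over all tested genes. The gene that rose was P4ha2, a catalytic subunit of prolyl hydroxylase, with 0, 0 and 0.0840 CPM in WT, against 19.8, 14.4, 4.71 and 9.02 CPM in Fyn-KO (edgeR adjusted p = 0.0137). The 2 genes of the list with the highest mean over the 7 libraries did not pass. P4hb, the partner subunit of that enzyme, stood at 77.0, 292 and 193 CPM in WT, against 367, 402, 239 and 320.3 CPM in Fyn-KO (edgeR adjusted p = 0.36). Serpinh1, the collagen chaperone, stood at 0.313, 252 and 69.8 CPM in WT, against 397, 364, 124 and 447 CPM in Fyn-KO (edgeR adjusted p = 0.495). Without WT replicate 2, 5 genes of the list rose and 1 fell, without WT replicate 3, 4 rose, and without WT replicate 1, 2 rose and 1 fell.

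Of 9 tested genes of trimming and crosslinking outside the cell, 5 rose, none fell and 4 did not pass (median log2 fold change 5.38), beside 19% higher and 3.51% lower over all tested genes. Of the 5, 3 stayed below 10 counts in all WT libraries, and among the 4 genes of the list detected in both groups 1 rose. Loxl2, Loxl1 and Lox encode amine oxidases that start the crosslinks between chains. Loxl2 stood at 0.704, 8.06 and 1.34 CPM in WT, against 150.5, 152, 78.3 and 139 CPM in Fyn-KO (log2 fold change 5.38 ± 1.11, edgeR adjusted p = 0.0123). Loxl1 stood at 0, 0.0611 and 0.168 CPM in WT, against 26.4 to 41.7 CPM in Fyn-KO (edgeR adjusted p = 0.0125), and Lox at 0.0783, 0 and 0.252 CPM in WT, against 14.3 to 33.6 CPM in Fyn-KO (0.0219). Pcolce, which speeds the trimming of the C-terminal end of fibrillar chains, stood at 0.0783, 20.2 and 1.09 CPM in WT, against 497, 532, 665 and 479.8 CPM in Fyn-KO (log2 fold change 6.48 ± 1.58, edgeR adjusted p = 0.0192). Adamts2, which trims the other end, completed the count, at 0, 0 and 0.336 CPM in WT, against 40.4 to 51.8 CPM in Fyn-KO (edgeR adjusted p = 0.0258). Adamts2 was lost without any 1 Fyn-KO library (adjusted p = 0.0582 to 0.0725), Lox without Fyn-KO replicate 1, 2 or 4 (0.0537 to 0.0589) and Pcolce without WT replicate 3 (0.0528), and 3 genes rose without Fyn-KO replicate 1, 2 or 4. Loxl3, a further amine oxidase, did not pass and had the higher mean in WT (log2 fold change -2.17 ± 0.79, edgeR adjusted p = 0.0849). It stood at 350.4, 59.9 and 83.2 CPM in WT, against 28.5 to 53.9 CPM in Fyn-KO, without overlap in unscaled CPM.

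Of 11 tested collagen receptors, 4 rose, 2 fell and 5 did not pass (median log2 fold change 1.06), with the same background of 19% and 3.51%. All 4 that rose stayed below 10 counts in all WT libraries, and among the 6 receptors detected in both groups none rose and 1 fell in edgeR (2 had an unadjusted p under 0.05). Itga2 and Itga10, integrin chains that bind collagen, were not counted in WT and reached 3.45 to 15.9 and 1.35 to 8.13 CPM in Fyn-KO (edgeR adjusted p = 0.0123 and 0.0125). Mrc2, which takes up collagen for breakdown, had 1 count in WT but had 2.88 to 9.69 CPM in Fyn-KO (edgeR adjusted p = 0.0148). Lair1, an inhibitory receptor of immune cells, had 1 count in WT but had 1.56 to 8.46 CPM in Fyn-KO (edgeR adjusted p = 0.02, and 0.0623 without WT replicate 1). Adgrg1, an adhesion receptor that binds type III collagen, fell from 473, 184 and 225 CPM in WT to 28.0, 23.1, 37.0 and 20.2 CPM in Fyn-KO (log2 fold change -3.51 ± 0.60, edgeR adjusted p = 0.0121). Ddr1, a collagen-binding receptor tyrosine kinase, stood at 144, 506 and 296 CPM in WT, against 94.9, 45.5, 71.4 and 114.9 CPM in Fyn-KO (log2 fold change -1.98 ± 0.56, edgeR adjusted p = 0.0357). The Ddr1 call was lost when any library other than WT replicate 1 was left out (adjusted p = 0.0563 to 0.099), and without WT replicate 1, 3 receptors rose and 3 fell.

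Markers of cells that can make fibrillar collagen were read beside these values. The background for each list is again 19% higher and 3.51% lower over all tested genes. Of 8 fibroblast markers, all 6 tested rose, and Pi16 and Clec3b were not tested. Of those 6, 5 stayed below 10 counts in all WT libraries, so they entered through Fyn-KO alone and had to be high there. Fewer of the 6 passed in other settings, 5 without WT replicate 1 or any 1 Fyn-KO library, 2 with the replicate block and 1 by limma-voom. All 8 fibroblast markers summed to 0.626, 0 and 3.11 CPM in WT, against 723, 707, 585 and 674 CPM in Fyn-KO. Lum, Fbln2, Pi16 and Clec3b had no count in WT. Markers of pericytes and smooth muscle summed to 47.8, 57.5 and 355 CPM in WT, against 676, 535, 466 and 597 CPM in Fyn-KO, with 3 of 7 tested higher and none lower. The number higher was 5 without WT replicate 3 and 2 without any 1 Fyn-KO library, and Pdgfrb, which did not pass, had its highest value in WT replicate 3 (314 CPM, log2 fold change -2.14, edgeR adjusted p = 0.643). Of 7 endothelial markers 1 rose and none fell, but 2 rose without WT replicate 2 and 6 without WT replicate 3. Of 6 tested macrophage and microglia markers, whose sum was 118 to 284 CPM in WT, against 134 to 179.7 CPM in Fyn-KO, 1 rose and none fell (2 rose without WT replicate 1 and 3 without WT replicate 3). Of 6 markers of steroid-producing cells 3 rose, none fell and 3 did not pass, while 5 rose without WT replicate 2 and 6 without WT replicate 3. Mgarp, Mrap and Nr5a1 had no count in WT. The part of any of these cells in the collagen values of Fyn-KO was not tested.

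**Figure D5:**
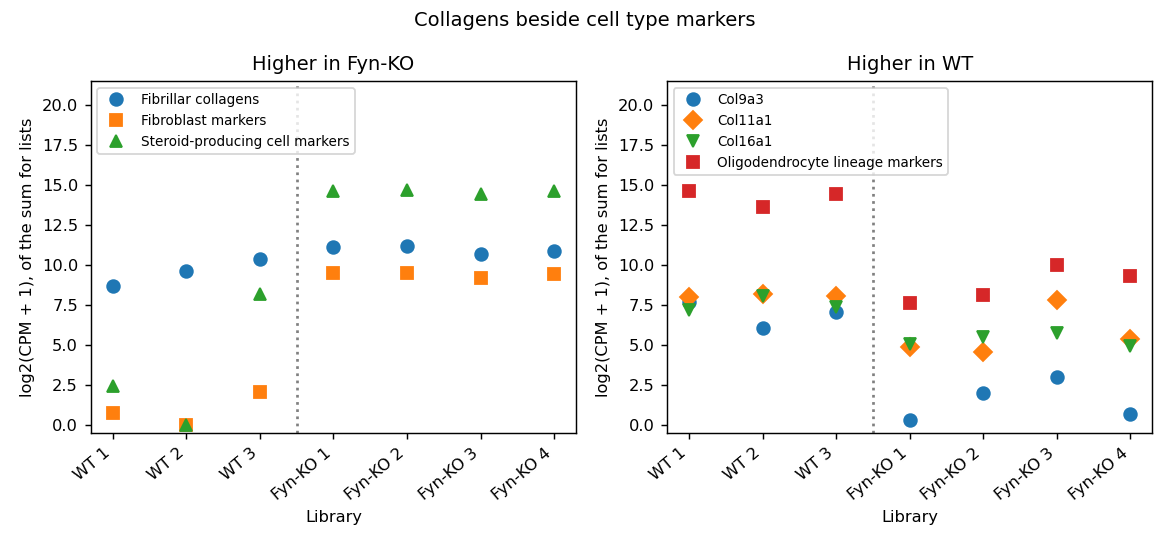
The vertical axis is log2(CPM + 1), of the summed CPM for lists of genes, and each column is a library. On the left the fibroblast markers lie at 0 to 3.11 CPM in WT, against 585 to 723 CPM in Fyn-KO beside the fibrillar collagen sum, and on the right Col9a3, Col11a1 and Col16a1 are beside the oligodendrocyte lineage markers, which are highest within Fyn-KO in replicate 3.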

How the data were processed

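RNA of sorted tdTomato-positive glioblastoma cells was measured with the Lexogen QuantSeq 3' kit in 7 libraries, per the labels' protocols. The authors deposited 1 table of read counts per gene, whole numbers that are not normalized. Per the submitters' processing notes, Bowtie2, bedtools, DESeq2 1.32.0 and mm10 (GRCm38) were used, and no source used here gives the strand of counting. Each column was joined to its group by its label. The column of WT replicate 3 has the title of 1 WT sample and is named in the description of another, so it stands for the group alone. Replicate numbers follow the columns.

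Counts were filtered with filterByExpr (minimum 10, total 15), scaled by TMM and compared with the quasi-likelihood F test of edgeR 4.0.16 in R 4.3.3, two-sided, adjusted by Benjamini-Hochberg over 13122 genes. The SE is the absolute log2 fold change divided by the root of F. The p-values measure the spread between these libraries. Depth was 8976745 to 16371244 counts, and floors (3 counts, 0.252 CPM in WT) and 95% intervals cover counting error only. Alternatives were RLE factors, library totals, 3 other filters, DESeq2 1.42.0, limma-voom 3.58.1, the replicate number as a block and each library left out. The fit was also run on simulated counts with the same spread for each gene, which do not cover the unevenness of the WT libraries.

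The genes named are collagens past the threshold, fibrillar or basement membrane collagens with a mean of 10 CPM or more in a group, and up to 4 called genes by p of each pathway list (with fewer than 2, also the 2 of highest mean over 7 libraries). Other collagens, Lair1, Ddr1, Adamts2, Loxl3, Pdgfrb and Aldh1l1 were named after their values were seen. The members, classes, pathway lists and marker lists were chosen with earlier results of these data known.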

Additional observations from a re-analysis of the deposited data

Results flagged for a closer look

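In Fyn-KO, 38 collagens with 10 or more counts in some library of the group were checked for a library that lies far from the other libraries of the group (the gap to the nearest library divided by the range, above Dixon's critical value), and 4 had one. Chance flags about 1 in 20 such groups. Col11a1 was highest in Fyn-KO replicate 3 at 222 CPM against 22.1 to 40.8 CPM in the others, with a gap of 0.906 of the range. Oligodendrocyte lineage markers were also highest in that library, at 1030 CPM, and their part was not tested. Col7a1 (22 counts) and Col19a1 (36 counts) had counts in Fyn-KO replicate 3 alone, and Col24a1 (11 counts) in Fyn-KO replicate 1 alone, so that in each the gap was the whole range, a value of 1.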

How the results depend on the processing

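With a minimum count of 50, only 4 of the 9 higher collagens were still tested. All 4 passed, as did the 2 lower ones. Among genes detected in both groups 0 were higher and 0 lower (1 and 1 at an unadjusted p under 0.05). None of the 9 higher was tested there, and of the 2 lower only Col16a1 was, so that filter could not show whether the other calls hold. Limma-voom with quality weights gave 0 higher (5 unadjusted) and 2 lower, and DESeq2 12 and 3. With the replicate block 2 rose (Col1a2 and Col3a1, neither among the 9) and 0 fell (2 unadjusted). Leaving out 1 library gave 6 to 14 higher and 0 to 3 lower. The deviations of same-numbered libraries from their group means of log2 CPM correlated at -0.0135, -0.0047 and -0.0227. With WT libraries this uneven, such values cannot show whether same-numbered libraries belong together. Over all genes, higher and lower calls were 52 and 146 among genes detected in both groups, 24 higher by limma-voom, 918 lower by DESeq2, 188 and 135 with the replicate block, and 2190 to 4585 and 247 to 839 when 1 library was left out. The median log2 fold change of all genes, 0.45, was 2.49 by limma-voom, 3.45 with the block, 0.90 with no filter, -0.21 among genes detected in both groups, and 0.85, 1.91 and 0.95 without WT replicates 1, 2 and 3.

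The 11 called collagens gave 144 values over the 15 alternatives, since some alternatives left some of these genes with too few counts to be tested. Of these values 31 did not pass and 0 changed sign. The 9 higher genes had at most 4 counts in any WT library, so their sign was all but fixed in advance. Neither collagen that changed sign was called. Col15a1 (-0.27) was 0.17 with library totals, 8.20 by limma-voom, 9.03 with the block and -0.86 to 11.54 when 1 library was left out (0.12 without Fyn-KO replicate 3). Col27a1 (-0.49) was 0.95 by limma-voom, 0.79 with the block and -1.07 to 1.13 (without WT replicate 1). The causes were not tested. Counts of 0 in WT set only bounds on fold changes, and depth limits the genes near 0.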
